A study of Homo sapiens with 18 samples.

Results

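The 9 genes described here encode parts of the MHC class I antigen presentation pathway: the heavy chains HLA-B, HLA-C, HLA-E and HLA-F, the light chain B2M, the peptide transporter subunits TAP1 and TAP2, and the inducible proteasome subunits PSMB8 and PSMB9. They were taken by gene symbol from the count tables of 18 libraries, where each of the 9 had 1 row among 40916 symbols. Their levels are given as CPM (counts per 1000000 counts of the library). The rule that picks them uses no measured value, but the members were chosen with earlier results of these data known.

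Class I molecules carry short peptides from the inside of a cell to its surface, where CD8+ T cells and natural killer cells inspect them. Proteasomes cut proteins into peptides, the TAP1 and TAP2 heterodimer pumps the peptides into the endoplasmic reticulum, and a loading complex places them on a heavy chain that is paired with B2M. Interferon-gamma signalling raises most genes of the pathway through IRF1 and the transactivator NLRC5, and in many epithelial tumours the pathway is lowered or lost.

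The cells were MCF10A, a non-tumorigenic human breast epithelial line that here expressed H2B-GFP, and HCT116, a human colorectal carcinoma line that was unlabelled and p53-null. Each line was grown alone, and the lines were also grown together as a mixture set up with 50% of each. The monocultures differed in medium as well as in line: MCF10A grew in F12 and DMEM with horse serum, EGF, hydrocortisone, cholera toxin and insulin, HCT116 in McCoy's 5A with fetal bovine serum, and the medium of the mixture is not given in the sources used here. Every culture type was either left non-irradiated (NIR) or given 10 Gy of ionizing radiation (IR), which made 6 groups of 3 biological replicates. Titles of the samples carry day 2, while the series text speaks of 72 h between irradiation and collection. Whether the p53-null HCT116 cells were 1 clone is not given in the sources used here.

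The libraries held 25737818 to 40839835 counts. Mitochondrial genes took 5.10% to 6.35% of the counts in MCF10A, 8.37% to 8.75% in non-irradiated and 11.5% to 12.7% in irradiated HCT116 and mixed cultures. Leaving out mitochondrial and the 10 most abundant genes before scaling changed no call of a member in any of the comparisons below. The 10 basal mammary markers, which include KRT5 and KRT14, summed to 10578 to 18291 CPM in the MCF10A libraries and to 516.2 to 1183 CPM in HCT116 alone, where they were higher after irradiation. Of the 8 intestinal markers, which summed to 310.1 to 340.1 CPM in HCT116 and to 7.68 to 11.2 CPM in MCF10A, the general epithelial gene EPCAM made up most, with a mean of 314.7 CPM in non-irradiated HCT116. The intestinal factor CDX2 was at 10.0 CPM there and at 0 in MCF10A, KRT20 was at 1.13 CPM, and CDX1 (listed at 0), VIL1, CDH17, LGALS4 and GPA33 were under 1 CPM, so most defining intestinal markers were near or at 0. The 6 leukocyte markers summed to at most 4.12 CPM in any library, nearly all of it CD14, whose mean of 3.65 CPM in non-irradiated MCF10A was close to the 3.98 CPM of HLA-F there, while the other 5 had means under 1 CPM in every group. Their part in the results was not tested. In the mixed cultures the median over line-specific genes put the share of MCF10A RNA at 0.447% ± 0.053 (SD, n = 3) without irradiation and at 1.24% ± 0.066 (SD, n = 3) after it. A non-negative least squares fit gave 0.804% ± 0.974 and 1.15% ± 0.967, which overlap, and a stricter choice of genes at 50 CPM gave 0.345% ± 0.067 and 1.07% ± 0.103, so all 3 estimates were low but a rise after irradiation was not seen beyond the spread in the least squares fit. The medians over line-specific genes subtract no level of HCT116 alone, so low expression of these genes in HCT116 can add to the share. Fewer MCF10A cells and less RNA per MCF10A cell cannot be told apart in these bulk libraries. The mixed libraries are therefore read below as HCT116 RNA with a small MCF10A part.

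Promoter sequences are shown for 5 members because the responses below divide genes that share promoter elements or a promoter region. They are the 250 bases upstream of the RefSeq start site on GRCh38.p14, 5′ to 3′ on the strand of the gene. Capitals mark matches, on either strand, to GAAA, any 2 bases and GAAA, the spacing of an interferon-stimulated response element (ISRE), and to GGG, any 2 bases, TT, any base and CC, an NF-kappaB-type element whose search was added after the windows had been seen.
HLA-B, chr6:31357180-31357429, minus strand: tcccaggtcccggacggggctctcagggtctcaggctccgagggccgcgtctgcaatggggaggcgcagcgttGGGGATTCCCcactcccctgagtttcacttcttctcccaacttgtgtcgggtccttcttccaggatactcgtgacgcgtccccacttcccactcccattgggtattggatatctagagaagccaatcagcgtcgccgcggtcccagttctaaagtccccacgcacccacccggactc
HLA-F, chr6:29723184-29723433, plus strand: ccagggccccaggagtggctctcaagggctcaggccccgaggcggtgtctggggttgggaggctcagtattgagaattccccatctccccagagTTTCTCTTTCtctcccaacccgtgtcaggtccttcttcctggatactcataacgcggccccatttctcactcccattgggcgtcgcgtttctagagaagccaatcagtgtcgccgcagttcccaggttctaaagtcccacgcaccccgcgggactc
B2M, chr15:44711267-44711516, plus strand: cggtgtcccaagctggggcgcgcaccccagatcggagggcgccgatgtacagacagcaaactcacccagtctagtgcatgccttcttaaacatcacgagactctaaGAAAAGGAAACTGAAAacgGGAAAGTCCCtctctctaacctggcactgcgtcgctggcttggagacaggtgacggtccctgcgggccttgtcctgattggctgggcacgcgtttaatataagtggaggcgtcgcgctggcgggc
TAP1, chr6:32853705-32853954, minus strand: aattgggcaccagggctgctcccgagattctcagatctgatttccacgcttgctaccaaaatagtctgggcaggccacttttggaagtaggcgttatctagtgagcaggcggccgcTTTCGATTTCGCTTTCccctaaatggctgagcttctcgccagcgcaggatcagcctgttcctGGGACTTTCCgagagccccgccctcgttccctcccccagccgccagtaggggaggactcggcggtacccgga
PSMB9, chr6:32853942-32854191, plus strand: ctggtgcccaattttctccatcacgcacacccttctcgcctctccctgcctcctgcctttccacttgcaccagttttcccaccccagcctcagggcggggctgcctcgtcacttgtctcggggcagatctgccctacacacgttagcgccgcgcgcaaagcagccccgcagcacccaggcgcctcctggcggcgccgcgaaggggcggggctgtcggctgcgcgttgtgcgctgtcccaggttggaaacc

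In the HLA-B window the only capitals are GGGGATTCCC, which begins 177 bases before the start. HLA-F has TTTCTCTTTC, the reverse-strand form of the ISRE pattern, from position -156. B2M has the overlapping matches GAAAAGGAAA at -144 and GAAACTGAAA at -138, followed by GGAAAGTCCC at -125. TAP1 has the overlapping matches TTTCGATTTC at -134 and TTTCGCTTTC at -128, and GGGACTTTCC at -72. TAP1 and PSMB9 are transcribed away from each other from starts 488 bases apart, and the PSMB9 window has no match to either motif. The TAP1 matches lie between these starts but outside the 250 bases of the PSMB9 window. Among the 10 windows found for 8 members, 4 held the ISRE pattern and 3 the NF-kappaB-type pattern, against 3.02% and 5.07% of 35116 RefSeq windows of the same 250 bases. TTC, any 3 bases and GAA was in 2 of the 10 windows against 6.57% of all windows, and CCAAT, the box bound by NF-Y, was in 6 against 32%. The TAP1 and PSMB9 windows overlap at their far ends. The CCAAT box of TAP1 at -249 and that of PSMB9 at -243 are the same bases, counted in both windows. A match is a run of letters and not a measured binding site. A window without a match can still hold an element whose bases depart from the pattern, so a missing match does not show that an element is absent. TAP2 has GAAAGCGAAA at -58. HLA-C, the PSMB8 windows and the window of the second TAP1 start had no match to either motif, and HLA-E is named only.

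All 9 members but B2M lie in the MHC region of chromosome 6. On GRCh38 with GENCODE 29, HLA-F spans 29722775 to 29738528, HLA-E 30489467 to 30494205, HLA-C 31268749 to 31272130 and HLA-B 31269491 to 31357188. TAP2 spans 32821833 to 32838780, PSMB8 32840717 to 32844703, PSMB9 32844136 to 32859585 and TAP1 32845209 to 32853978. B2M lies on chromosome 15 from 44711487 to 44718877. The models of HLA-B and HLA-C, of PSMB8 and PSMB9, of PSMB9 and TAP1, and of HLA-F and its antisense gene HLA-F-AS1 overlap. The class I heavy chain genes are also near-identical over long stretches and vary between people. How overlapping or multiply mapping reads were counted, and with which strand setting, is not given in the sources used here, so the split of reads between these rows is uncertain.

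Scaled by the length of the principal transcript, B2M was the most abundant of the 9 transcripts in each of the 6 groups. It stood at 271.9 ± 14.1 CPM per kb (SD, n = 3) in non-irradiated MCF10A and at 225.0 ± 1.72 CPM per kb (SD, n = 3) in non-irradiated HCT116. HLA-C was the most abundant of the 4 heavy chains on the same scale, at 81.8 ± 4.09 CPM per kb in non-irradiated MCF10A and 196.6 ± 7.37 CPM per kb in non-irradiated HCT116. HLA-F was low throughout, with group means between 2.43 and 6.28 CPM per kb. HLA-E at 47.8 CPM per kb lay above HLA-B at 21.8 CPM per kb in non-irradiated MCF10A, whereas in non-irradiated HCT116 HLA-B at 94.2 CPM per kb lay above HLA-E at 74.4 CPM per kb.

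**Figure D1:**
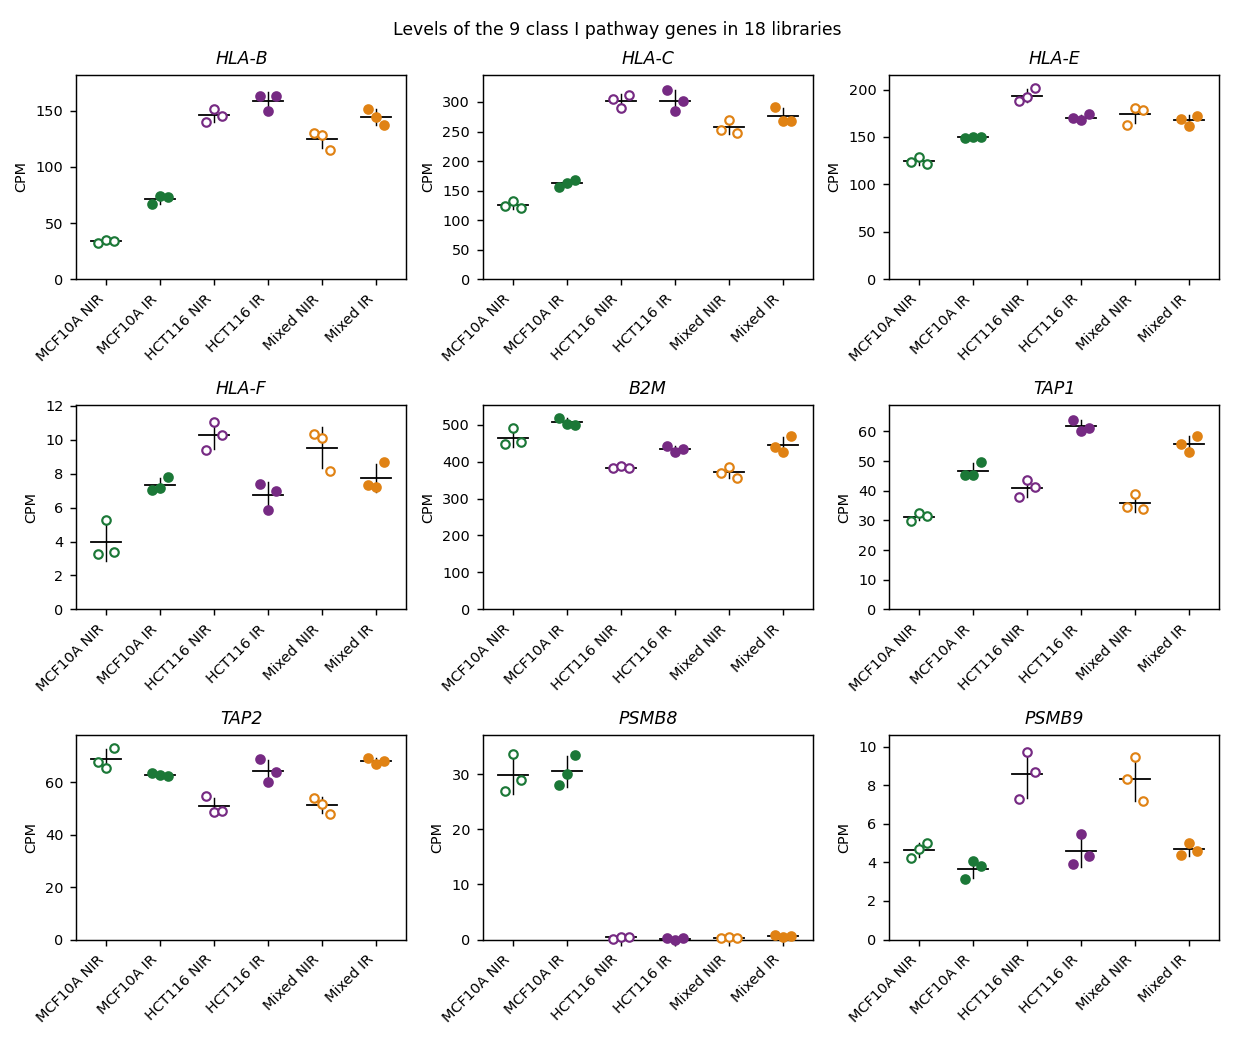
CPM of each of the 9 genes in all 18 libraries, one panel per gene, with the 6 groups on the x axis. Open points are NIR and filled points IR libraries, horizontal lines are group means and vertical lines ± 1 SD (n = 3). HLA-B and HLA-C were lowest in MCF10A, and PSMB8 was above 1 CPM only in MCF10A.

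HLA-B, a classical heavy chain that presents peptides to CD8+ T cells, was at 32.0, 35.2 and 34.0 CPM in the non-irradiated MCF10A libraries and at 66.7, 73.7 and 72.9 CPM in the irradiated ones. In HCT116 its values were 140.2, 151.4 and 145.4 CPM without and 163.4, 149.7 and 163.4 CPM with irradiation. Mixed cultures had 129.7, 128.2 and 115.4 CPM for HLA-B without irradiation and 151.2, 144.6 and 137.3 CPM with it. Every MCF10A library was therefore below every library of the other cultures, and irradiated and non-irradiated MCF10A did not overlap. The group order ran from irradiated HCT116 through non-irradiated HCT116, irradiated mixed, non-irradiated mixed and irradiated MCF10A to non-irradiated MCF10A, and only the top 3 groups overlapped with their neighbours.

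HLA-C, the classical heavy chain that is also the main ligand of killer-cell immunoglobulin-like receptors, was at 123.8, 132.7 and 120.5 CPM in non-irradiated and 156.3, 163.4 and 167.4 CPM in irradiated MCF10A. HCT116 had 304.6, 289.6 and 311.8 CPM for HLA-C without irradiation and 319.9, 285.2 and 302.0 CPM with it. The mixed libraries had 253.3, 270.1 and 247.3 CPM without and 291.3, 268.2 and 267.9 CPM with irradiation. MCF10A was again below all other libraries, while the 2 HCT116 groups overlapped, as did the 2 mixed groups.

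HLA-E, a non-classical heavy chain that shows leader peptides of other class I chains to NKG2A receptors, was at 123.1, 128.6 and 121.2 CPM in non-irradiated and 148.4, 150.2 and 150.3 CPM in irradiated MCF10A. In HCT116 it was at 187.6, 191.8 and 201.5 CPM and, after irradiation, at 169.7, 167.7 and 173.7 CPM. The mixed cultures had 162.8, 180.7 and 178.2 CPM for HLA-E without and 169.0, 162.1 and 172.4 CPM with irradiation. Irradiated MCF10A was above and irradiated HCT116 below its own control in every library, so the gap between the lines was smaller after irradiation.

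HLA-F, a non-classical heavy chain that can reach the surface without peptide, was the lowest of the heavy chains. Its values were 3.29, 5.27 and 3.38 CPM in non-irradiated and 7.02, 7.19 and 7.82 CPM in irradiated MCF10A. HCT116 had 9.43, 11.1 and 10.3 CPM for HLA-F without and 7.37, 5.88 and 6.99 CPM with irradiation. In the mixed cultures HLA-F was at 10.3, 10.1 and 8.14 CPM without and 7.31, 7.24 and 8.72 CPM with irradiation. Non-irradiated MCF10A was below all other libraries, and the 5 other groups overlapped with their neighbours in order of mean. HLA-F-AS1, which lies opposite HLA-F, was at 2.93 ± 0.336 and 6.25 ± 0.400 CPM in non-irradiated and irradiated MCF10A and at 6.95 ± 0.754 and 4.38 ± 1.18 CPM in HCT116 (SD, n = 3). Without the strand setting the reads of the pair cannot be told apart.

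B2M, the invariant light chain that every classical class I molecule needs, was at 447.2, 491.2 and 452.4 CPM in non-irradiated and 519.1, 501.7 and 498.0 CPM in irradiated MCF10A. HCT116 had 382.6, 386.8 and 381.2 CPM for B2M without and 441.1, 424.8 and 434.9 CPM with irradiation. The mixed libraries had 369.4, 386.5 and 355.9 CPM for B2M without and 440.4, 426.3 and 468.4 CPM with irradiation. Irradiated libraries were above the non-irradiated ones of the same culture without overlap in all 3 culture types. Unlike the classical heavy chains, B2M was lower in HCT116 than in MCF10A.

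TAP1, a subunit of the peptide transporter, was at 29.9, 32.5 and 31.5 CPM in non-irradiated and 45.3, 45.4 and 49.7 CPM in irradiated MCF10A. HCT116 had 37.7, 43.4 and 41.3 CPM for TAP1 without and 64.0, 60.2 and 61.3 CPM with irradiation. The mixed cultures had 34.5, 39.0 and 33.7 CPM for TAP1 without and 55.9, 52.9 and 58.3 CPM with irradiation. All 9 irradiated libraries were above all 9 non-irradiated ones.

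TAP2, the partner of TAP1, was at 67.7, 65.3 and 73.0 CPM in non-irradiated and 63.3, 62.6 and 62.5 CPM in irradiated MCF10A. In HCT116 TAP2 was at 54.6, 48.5 and 49.2 CPM without and 68.6, 60.1 and 63.9 CPM with irradiation. The mixed cultures had 53.8, 51.8 and 47.9 CPM for TAP2 without and 69.2, 66.8 and 67.9 CPM with irradiation. The non-irradiated HCT116 and mixed groups were the lowest and overlapped with each other, and the other 4 groups overlapped with their neighbours in order of mean.

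PSMB8, the inducible subunit that replaces PSMB5 in the immunoproteasome, was at 26.9, 33.7 and 28.9 CPM in non-irradiated and 28.1, 29.9 and 33.5 CPM in irradiated MCF10A. In HCT116 PSMB8 was at 0.116, 0.559 and 0.507 CPM without and 0.244, 0 and 0.272 CPM with irradiation, from 0 to 18 counts a library. The mixed cultures had 0.250, 0.433 and 0.361 CPM for PSMB8 without and 0.879, 0.535 and 0.607 CPM with irradiation, from 7 to 31 counts a library. All 6 MCF10A libraries were far above the 12 others.

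PSMB9, the inducible subunit that replaces PSMB6, was at 4.23, 4.68 and 4.99 CPM in non-irradiated and 3.16, 4.05 and 3.79 CPM in irradiated MCF10A. HCT116 had 7.29, 9.70 and 8.69 CPM for PSMB9 without and 3.90, 5.48 and 4.31 CPM with irradiation. In the mixed cultures PSMB9 was at 8.30, 9.46 and 7.17 CPM without and 4.39, 5.02 and 4.61 CPM with irradiation. The non-irradiated HCT116 and mixed libraries were above all 12 others.

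Changes were tested with edgeR's quasi-likelihood test on the counts of all genes that passed a filter on low counts, and a gene was called at a Benjamini-Hochberg adjusted p under 0.05 over all genes tested. The comparisons below share groups of libraries, so their values are set side by side and are not independent of one another.

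In MCF10A, irradiation raised all 4 heavy chains, B2M and TAP1 and lowered TAP2. Of the 9 members 6 were called higher and 1 lower, where 55.4% of the 15154 genes tested were called, 26.2% higher and 29.2% lower. The median log2 fold change of the members was 0.25, against 0.00 over all genes tested. HLA-B rose most, 2.08-fold (log2 fold change 1.05 ± 0.066 SE, adjusted p 9.9e-14). HLA-F rose by 0.86 ± 0.18 on the log2 scale (adjusted p 2e-04). HLA-C rose by 0.35 ± 0.049 (adjusted p 7.5e-07) and HLA-E by 0.25 ± 0.046 (adjusted p 5e-05). With the counts of the 4 heavy chain rows summed, which removes the split of reads between them, the log2 fold change was 0.42 ± 0.04 (adjusted p 2.6e-09).

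TAP1 rose by 0.56 ± 0.072 on the log2 scale (adjusted p 1.4e-07). B2M rose by only 0.10 ± 0.042 (adjusted p 0.0367). That call was lost when non-irradiated replicate 1 or 3 or any of irradiated replicates 1, 2 and 3 was left out (log2 fold change 0.08 to 0.11, adjusted p 0.0544 to 0.162), and the value was 0.16 without non-irradiated replicate 2. It was also lost without a filter (adjusted p 0.0646) and with all 18 libraries in 1 fit (adjusted p 0.101). TAP2 fell by 0.15 ± 0.057 (adjusted p 0.0288), a call that was lost under DESeq2 (adjusted p 0.0524), upper-quartile scaling (log2 fold change -0.06, adjusted p 0.352) plain library size (adjusted p 0.0652) and all 18 libraries in 1 fit (adjusted p 0.0516), and without non-irradiated replicate 3 (-0.11, adjusted p 0.163) or irradiated replicate 1, 2 or 3 (-0.15, adjusted p 0.0558 to 0.0692). PSMB8 had a log2 fold change of 0.01 ± 0.090 (adjusted p 0.926) and PSMB9 of -0.36 ± 0.19 (adjusted p 0.116), and neither was called.

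Around these members in MCF10A, TAPBP, the tapasin chaperone that bridges TAP and the heavy chain, rose from 63.1 to 84.2 CPM (log2 fold change 0.40 ± 0.057, adjusted p 9.8e-07). Of 7 peptide loading and trimming genes 1 rose and 2 fell, against 2 and 1 with upper-quartile scaling, under which CALR was also called higher (0.12, adjusted p 0.0101). The trimming peptidase ERAP1 fell (log2 fold change -0.26, adjusted p 0.0042), but not with upper-quartile scaling (-0.17, adjusted p 0.0506). Of 8 proteasome subunits and activators 2 fell, PSMB6 (log2 fold change -0.45, adjusted p 1.1e-05) and the activator subunit PSME2 (log2 fold change -0.34, adjusted p 4.6e-05). With upper-quartile scaling PSME3 was also called higher (0.14, adjusted p 0.0072). Of 15 class I regulators 3 were higher and 9 lower, where 26.2% of all genes tested were higher and 29.2% lower. Those counts were 4 and 7 with upper-quartile scaling. NLRC5, the transactivator that binds class I promoters, was lower at 6.39, 5.07 and 6.53 CPM against 9.85, 9.66 and 9.43 CPM (log2 fold change -0.70 ± 0.14, adjusted p 9.8e-05), without overlap. The heavy chains were higher in the same libraries, and the part of NLRC5 in their change was not tested. STAT2, a factor of type I interferon signalling, rose most on that list (log2 fold change 0.87 ± 0.070, adjusted p 2.3e-11). IRF1 was not called (log2 fold change 0.26, adjusted p 0.0713) except with upper-quartile (adjusted p 0.0180) or library-size scaling (adjusted p 0.0492).

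**Figure D2:**
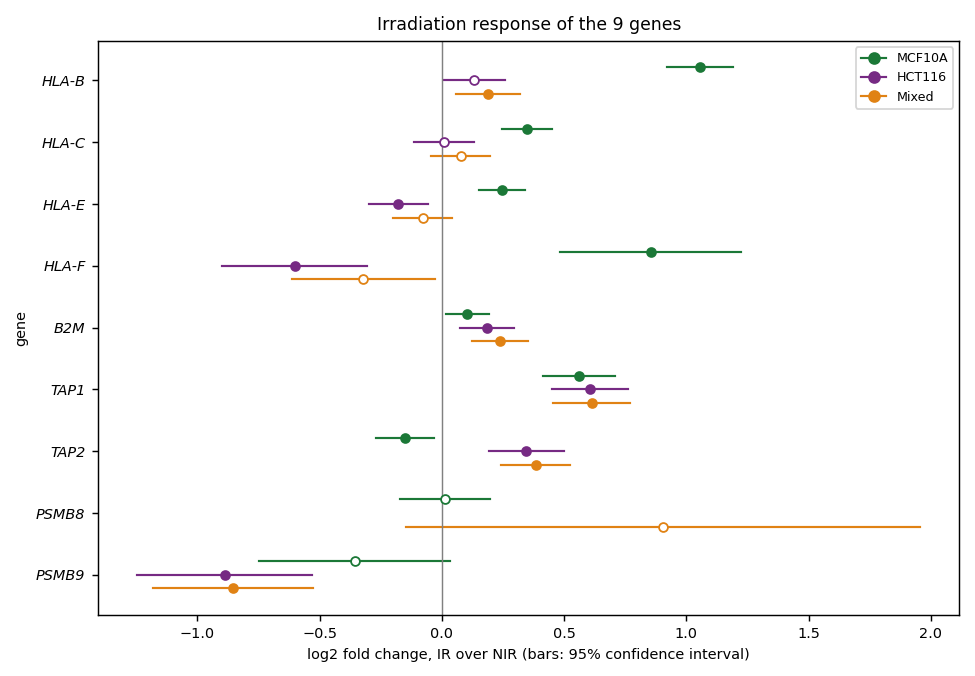
Log2 fold change of irradiated over non-irradiated libraries for the 9 genes in MCF10A, HCT116 and mixed cultures, with 95% confidence intervals from the edgeR fit (n = 3 against 3). Filled points were called at adjusted p under 0.05, open points were not, and PSMB8 in HCT116 was not tested. The 4 heavy chains lay right of 0 in MCF10A, and TAP1 lay near 0.6 in each culture type.

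In HCT116, irradiation raised the light chain and both transporter subunits and lowered HLA-E, HLA-F and PSMB9. Of the 8 members that passed the filter 3 were called higher and 3 lower, where 52.5% of 16857 genes were called, 25.3% higher and 27.2% lower. PSMB8 did not pass. The median log2 fold change of the 8 was 0.07, against 0.01 over all genes tested. The classical heavy chains HLA-B (log2 fold change 0.13 ± 0.060, adjusted p 0.0709) and HLA-C (0.01 ± 0.059, adjusted p 0.911) were not called. HLA-B was called under DESeq2 (adjusted p 0.0473), with all 18 libraries in 1 fit (adjusted p 0.0481), with all counts halved (adjusted p 0.0418) and without irradiated replicate 2 (log2 fold change 0.17, adjusted p 0.0450).

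HLA-F fell by 0.60 ± 0.14 on the log2 scale in HCT116 (adjusted p 0.0012). HLA-E fell by 0.18 ± 0.058 (adjusted p 0.0128), and without non-irradiated replicate 3 it was not called (log2 fold change -0.14, adjusted p 0.0560). The 4 heavy chain rows summed gave a log2 fold change of -0.02 ± 0.05 (adjusted p 0.794), so the total of heavy chain counts did not change by a detectable amount. B2M rose by 0.18 ± 0.053 (adjusted p 0.0055), TAP2 by 0.35 ± 0.074 (adjusted p 0.00038) and TAP1 by 0.61 ± 0.075 (adjusted p 3.5e-07). PSMB9, whose start lies 488 bases from that of TAP1, fell 1.85-fold (log2 fold change -0.89 ± 0.17, adjusted p 0.00014).

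PSMB10, the inducible counterpart of PSMB7, rose in HCT116 from 0.672 to 2.95 CPM (log2 fold change 2.13 ± 0.32, adjusted p 5.2e-06), and 5 of the 8 proteasome genes rose, the activator subunits PSME1 (0.18) and PSME2 (0.35) included. Among the 7 loading and trimming genes 2 rose and 4 fell. ERAP2, a trimming peptidase, rose from 4.57, 3.76 and 3.80 to 8.87, 10.2 and 11.0 CPM (log2 fold change 1.31 ± 0.16, adjusted p 2.5e-07) and ERAP1 by 0.22 (adjusted p 0.0488, and 0.0577 with library-size scaling). TAPBP was not called (0.07, adjusted p 0.424). Of the 15 regulators 4 were higher and 6 lower: NLRC5 (log2 fold change 0.35 ± 0.13, adjusted p 0.0233) and IRF1 (0.75 ± 0.12, adjusted p 9.6e-06) were among the higher ones. RFXAP, a subunit of the RFX complex on MHC promoters, fell most on the list (log2 fold change -0.92 ± 0.19, adjusted p 0.00022).

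In the mixed cultures, irradiation raised HLA-B, B2M, TAP1 and TAP2 and lowered PSMB9. Of the 9 members 4 were called higher and 1 lower, where 49.4% of 16906 genes were called, 24% higher and 25.4% lower. The median log2 fold change of the members was 0.19, against 0.01 over all genes tested. TAP1 rose by 0.61 ± 0.076 on the log2 scale (adjusted p 8.6e-07), TAP2 by 0.38 ± 0.068 (adjusted p 7.1e-05) and B2M by 0.24 ± 0.055 (adjusted p 0.001). PSMB9 fell 1.81-fold (log2 fold change -0.85 ± 0.16, adjusted p 0.00011). HLA-B rose by 0.19 ± 0.063 (adjusted p 0.0158), a call lost without non-irradiated replicate 3 (0.13, adjusted p 0.115) or irradiated replicate 1 (0.15, adjusted p 0.0931) or 2 (0.18, adjusted p 0.0667).

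HLA-C (0.08 ± 0.057, adjusted p 0.286) and HLA-E (-0.08 ± 0.059, adjusted p 0.283) were not called in the mixture. HLA-F was not called either (log2 fold change -0.32 ± 0.14, adjusted p 0.0638), but was lower at an adjusted p of 0.0176 without non-irradiated replicate 3 (-0.44) and of 0.0409 without irradiated replicate 3 (-0.41). The heavy chain rows summed gave 0.05 ± 0.05 (adjusted p 0.453). PSMB8 was at 7 to 15 counts without and 20 to 31 counts with irradiation and was not called (log2 fold change 0.90 ± 0.51, adjusted p 0.148).

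Of the 15 regulators 6 were higher and 6 lower in the irradiated mixture. NFYB, a subunit of the CCAAT-binding factor NF-Y, had the largest change of the list (log2 fold change -0.77 ± 0.079, adjusted p 5.2e-08). NLRC5 (0.50, adjusted p 0.0014) and IRF1 (0.37, adjusted p 0.0039) were among the higher ones. Of the 7 loading and trimming genes 2 rose and 4 fell, ERAP2 rising most (1.18 ± 0.15, adjusted p 9.7e-07). Of the 8 proteasome genes 3 rose and 2 fell, with PSMB10 at 0.96 ± 0.33 (adjusted p 0.0212).

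**Figure D3:**
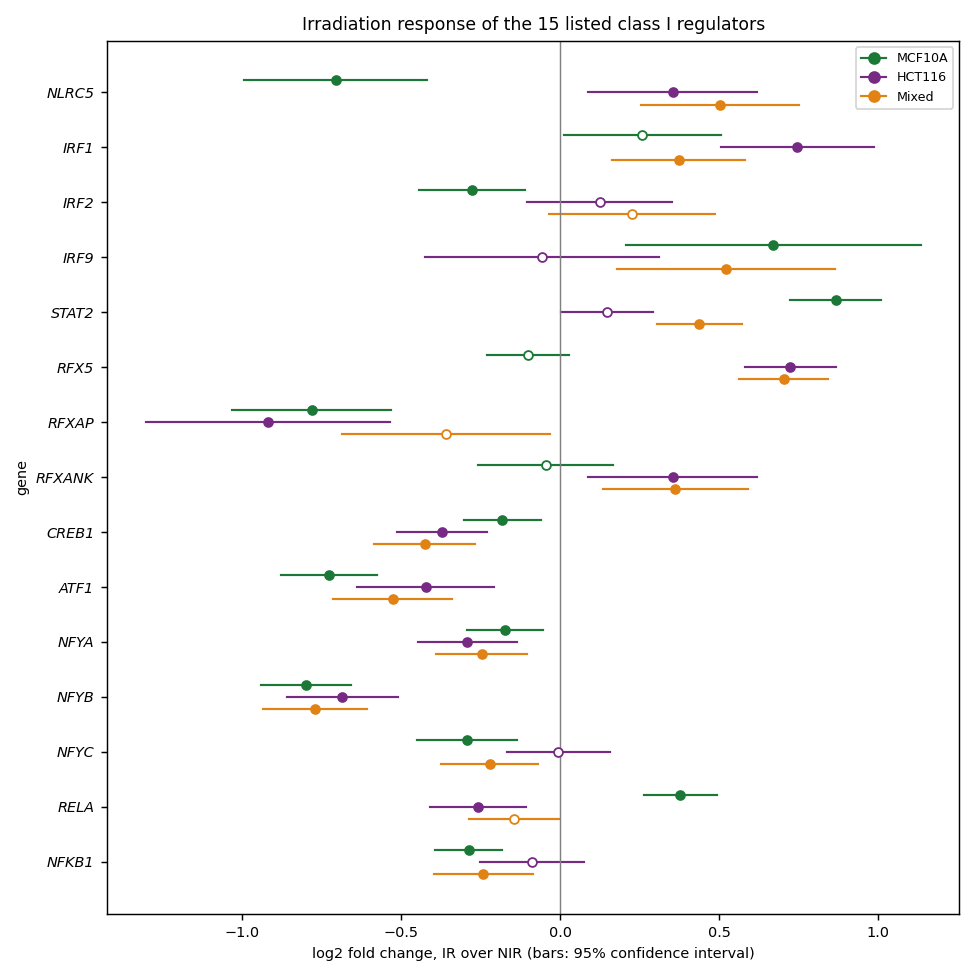
Log2 fold change of irradiated over non-irradiated libraries for 15 regulators of class I genes in MCF10A, HCT116 and mixed cultures, with 95% confidence intervals from the edgeR fit (n = 3 against 3). Filled points were called and open points were not. NLRC5 lay left of 0 in MCF10A and right of 0 in HCT116 and in the mixture.

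The response to irradiation itself differed between the lines for 5 of the 9 members, tested as the interaction of line and irradiation in 1 fit over the 12 monoculture libraries, where 37.3% of 18179 genes were called, 15.4% higher and 21.9% lower in HCT116. The 4 heavy chains responded more positively in MCF10A, and TAP2 in HCT116. The median difference of the members was -0.50, against -0.10 over all genes tested. The median over all genes was -0.006 without mitochondrial and the 10 most abundant genes. HLA-F differed by -1.53 ± 0.24 (adjusted p 1.5e-05), as it rose in MCF10A and fell in HCT116. HLA-B differed by -1.001 ± 0.086 (adjusted p 1.1e-09). HLA-E differed by -0.50 ± 0.071 (adjusted p 3.2e-06), with a rise in MCF10A and a fall in HCT116. HLA-C differed by -0.42 ± 0.078 (adjusted p 0.00012), and by -0.27 without irradiated HCT116 replicate 2 (adjusted p 0.0108). Without mitochondrial and the 10 most abundant genes the HLA-C difference was -0.32 (adjusted p 0.0021). TAP2 differed by 0.42 ± 0.093 in the other direction (adjusted p 0.00082).

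For the heavy chain rows summed, the difference between the responses was -0.52 ± 0.069 (adjusted p 1.3e-06), a value that the split of reads among these 4 rows cannot alter. TAP1 differed by -0.03 (95% interval -0.24 to 0.18) and B2M by 0.00 (95% interval -0.13 to 0.14), and neither was called. PSMB9 (-0.61 ± 0.26, adjusted p 0.0678) and PSMB8 (-1.39 ± 0.62, adjusted p 0.0818) were not called, and without non-irradiated HCT116 replicate 1 both were (PSMB9 -0.72, adjusted p 0.0396, and PSMB8 -1.88, adjusted p 0.0094). Over all fits that leave out 1 library, PSMB9 ran from -0.72 to -0.43 (adjusted p up to 0.256) and PSMB8 from -1.89 to -0.55 (adjusted p up to 0.490), the last without irradiated HCT116 replicate 2.

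Of the pathway genes around the members, NLRC5 responded in opposite directions in the lines (difference 0.98 ± 0.19, adjusted p 2e-04). That direction was the reverse of the heavy chains' difference, and the part of NLRC5 in their response was not tested. TAPBP differed like the heavy chains (-0.40 ± 0.094, adjusted p 0.0014), and ERAP2 (1.24 ± 0.21, adjusted p 4.1e-05), PSME2 (0.62 ± 0.094, adjusted p 9.5e-06) and PSMB10 (2.61 ± 0.39, adjusted p 6.6e-06) differed like TAP2. Of the 15 regulators 2 differed toward HCT116 and 4 toward MCF10A, of the 8 proteasome genes 4 toward HCT116, and of the 7 loading and trimming genes 2 toward HCT116 and 4 toward MCF10A. The regulator split moved with scaling, to 4 toward HCT116 and 3 toward MCF10A with library size and to 3 and 4 with DESeq2. With library-size scaling 5 proteasome genes differed toward HCT116.

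Without irradiation HCT116 had more heavy chain RNA than MCF10A, less B2M and TAP2, and almost no PSMB8. All 9 members were called, 6 higher and 3 lower in HCT116, where 74.8% of 16568 genes were called, 38.7% higher and 36.1% lower. The median log2 fold change of the members was 0.44, against 0.05 over all genes tested, and that of all genes was 0.25 when counts were scaled by the upper quartile or by the library total alone. HLA-B was 3.76-fold higher (log2 fold change 1.91 ± 0.064, adjusted p 1.2e-14), HLA-F 2.24-fold (1.16 ± 0.19, adjusted p 2.7e-05) and HLA-C 2.09-fold (1.07 ± 0.057, adjusted p 8.2e-12). HLA-E was higher by 0.44 ± 0.055 (adjusted p 1.1e-06). The summed heavy chain rows were higher by 0.98 ± 0.05 (adjusted p 9.8e-12).

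B2M was lower in HCT116 by a log2 fold change of -0.47 ± 0.053 (adjusted p 2.4e-07) and TAP2 by -0.63 ± 0.069 (adjusted p 1.9e-07). TAP1 was higher at the edge of the threshold (0.18 ± 0.082, adjusted p 0.0497). Its call was lost without MCF10A replicate 1 (0.14, adjusted p 0.210), 2 (0.20, adjusted p 0.0618) or 3 (0.17, adjusted p 0.117), and without HCT116 replicate 2 (0.14, adjusted p 0.182) or 3 (0.16, adjusted p 0.118). PSMB8 was 88.6-fold lower (-6.47 ± 0.24, adjusted p 4e-14), whereas its neighbour PSMB9 was higher by 0.69 ± 0.17 (adjusted p 0.0015).

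**Figure D4:**
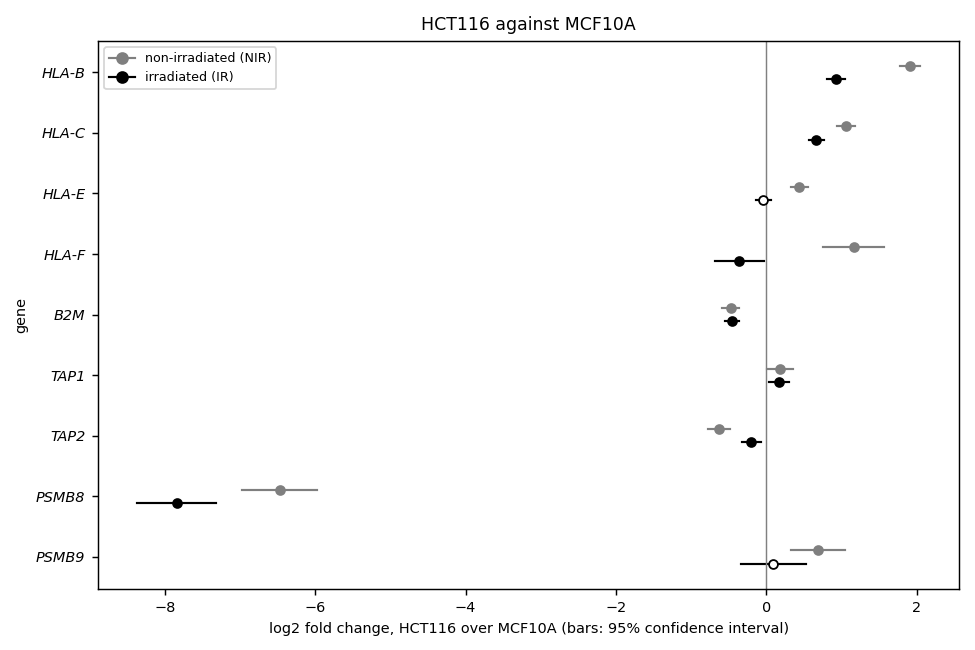
Log2 fold change of HCT116 over MCF10A for the 9 genes in non-irradiated and irradiated libraries, with 95% confidence intervals from the edgeR fit (n = 3 against 3). Filled points were called and open points were not. PSMB8 lay at -6.47 and -7.84, and the heavy chains lay farther left after irradiation than before it.

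After irradiation the heavy chain gap between the lines was smaller. Of the 9 members 3 were called higher and 4 lower in HCT116, where 74.9% of 16932 genes were called, 38.1% higher and 36.8% lower. The median log2 fold change of the members was -0.04, against 0.04 over all genes tested, which was 0.22 with upper-quartile and 0.27 with library-size scaling. HLA-B was higher by 0.93 ± 0.057 (adjusted p 7.8e-14) and HLA-C by 0.67 ± 0.051 (adjusted p 8.5e-12). HLA-E was not called (-0.04 ± 0.048, adjusted p 0.424) and was higher in HCT116 with upper-quartile (0.14, adjusted p 0.0111) and library-size scaling (0.19, adjusted p 0.0010), as its CPM ranges were. HLA-F was lower by a log2 fold change of -0.36 ± 0.16 (adjusted p 0.0415). The call was lost under DESeq2 (adjusted p 0.0518) and under both other scalings (-0.17 and -0.13), and without irradiated MCF10A replicate 2 (-0.38, adjusted p 0.0535) or 3 (-0.32, adjusted p 0.116) or irradiated HCT116 replicate 2 (-0.27, adjusted p 0.150) or 3 (-0.39, adjusted p 0.0577).

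B2M stayed lower in irradiated HCT116 (-0.45 ± 0.044, adjusted p 7.4e-10), and PSMB8 was 229.5-fold lower (-7.84 ± 0.25, adjusted p 8e-20) on 0 to 8 counts a library. With 1 library left out the log2 fold change ran from -8.35 to -7.11, the last without irradiated HCT116 replicate 2, which had 0 counts, so its size is uncertain. TAP1 was higher by 0.17 ± 0.066 (adjusted p 0.0223), which was not called without irradiated MCF10A replicate 1 (0.13, adjusted p 0.137) or 2 (0.14, adjusted p 0.107) or irradiated HCT116 replicate 1 (0.14, adjusted p 0.0753). TAP2 was lower by a log2 fold change of -0.20 ± 0.063 (adjusted p 0.0067), but at -0.02 with upper-quartile scaling (adjusted p 0.825) and at 0.032 with library-size scaling (adjusted p 0.652). PSMB9 was not called (0.09 ± 0.21, adjusted p 0.703).

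Among the other pathway genes, 5 of 7 loading and trimming genes were lower in HCT116 without irradiation and 6 of 7 after it, against 4 lower and 1 higher without irradiation and 5 lower after it with upper-quartile scaling. ERAP1 was lower by log2 fold changes of -1.21 and -0.79 (adjusted p 3.5e-10 and 3.1e-09). ERAP2 was lower without irradiation (-1.52 ± 0.16, adjusted p 1e-07) and not called after it (-0.26 ± 0.14, adjusted p 0.103). PSMB10 was lower by -2.37 ± 0.33 in non-irradiated HCT116 (adjusted p 3.4e-06). Of the regulators IRF2 (-1.58 and -1.24) and NFKB1 (-1.75 and -1.61) were lower in HCT116 without and with irradiation. In all, 3 of 15 regulators were higher and 8 lower without irradiation, and 5 and 8 after it, against 5 and 6 in both states with upper-quartile scaling.

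Inducible and constitutive proteasome subunits were compared as the percent of length-scaled counts that the inducible subunit held within its pair. This is a ratio of RNA levels, and the exchange of subunits in assembled proteasomes was not measured. PSMB8 held 19.3% ± 0.94 of the pair with PSMB5 in non-irradiated MCF10A and 19.6% ± 1.32 in irradiated MCF10A (SD, n = 3). It held 0.367% ± 0.216 and 0.127% ± 0.110 in HCT116. The pair of PSMB9 and PSMB6 showed no such gap between the lines: PSMB9 held 6.69% ± 1.13 and 7.07% ± 1.27 in MCF10A. In HCT116 the PSMB9 share was 8.76% ± 1.27 without irradiation and 5.17% ± 1.02 after it, and these libraries did not overlap. PSMB10 held 0.276% ± 0.058 of its pair with PSMB7 in non-irradiated and 1.30% ± 0.148 in irradiated HCT116, again without overlap. The non-irradiated HCT116 value rests on 28, 19 and 17 PSMB10 counts. In MCF10A PSMB10 held 1.42% ± 0.264 and 1.02% ± 0.133. The 3 inducible subunits thus moved separately, PSMB9 and PSMB10 in opposite directions in irradiated HCT116.

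**Figure D5:**
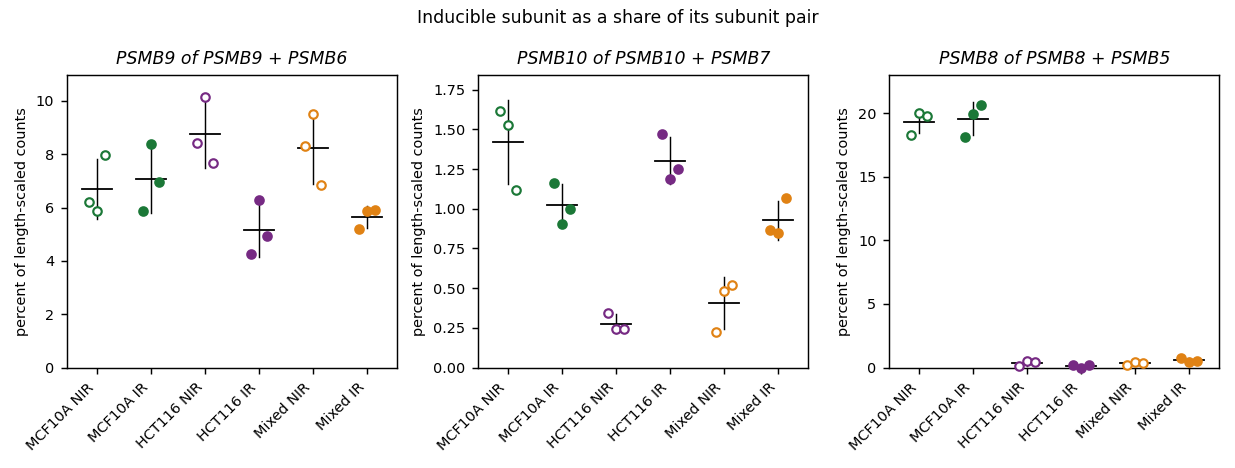
Percent of the length-scaled counts of a subunit pair that belonged to the inducible member, for PSMB9 with PSMB6, PSMB10 with PSMB7 and PSMB8 with PSMB5, in each library of the 6 groups. Open points are NIR and filled points IR libraries, horizontal lines are means and vertical lines ± 1 SD (n = 3). PSMB8 held 18.1% to 20.7% in MCF10A and under 1% elsewhere, and the share of PSMB10 was higher in irradiated than in non-irradiated HCT116.

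Mixed cultures were compared with HCT116 alone to ask whether class I genes differed when MCF10A cells were present. No member was called without irradiation, where 2.04% of 16455 genes were called, 0.887% higher and 1.15% lower (edgeR, 3 of the 9 at an unadjusted p under 0.05, and 1 called by DESeq2). No member was called after irradiation either, where 8.56% of 17137 genes were called, 5.08% higher and 3.48% lower (edgeR, 4 of the 9 at an unadjusted p under 0.05, and 0 called by DESeq2). The classical heavy chains had lower levels in the mixture without irradiation, with log2 fold changes of -0.22 ± 0.061 for HLA-C (adjusted p 0.0719) and -0.21 ± 0.065 for HLA-B (adjusted p 0.102), and the libraries did not overlap for either. The share of all genes whose libraries did not overlap was not computed. Non-overlap is therefore only a description in the comparisons of mixed cultures with HCT116. HLA-C was the gene that DESeq2 called (adjusted p 0.0228). It was also called with the replicate number as a block (adjusted p 0.0336). Same-numbered libraries of these 2 groups deviated together only weakly (r 0.111), and the labels do not say that the numbers pair them. HLA-E had a log2 fold change of -0.14 ± 0.064 (adjusted p 0.319), also without overlap.

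After irradiation the log2 fold changes of the mixture over HCT116 were -0.15 ± 0.056 for HLA-B (adjusted p 0.114) and -0.14 ± 0.053 for HLA-C (adjusted p 0.104). The HLA-C difference was called without irradiated mixed replicate 1 (-0.19, adjusted p 0.0331), and with a replicate block HLA-B (adjusted p 0.0276), HLA-C (adjusted p 0.0099) and PSMB8 (adjusted p 0.0471) were (r of same-numbered libraries 0.094). TAP1 was at -0.16 ± 0.064 (adjusted p 0.133) without overlap. For B2M (95% interval -0.07 to 0.12), HLA-E (-0.14 to 0.07) and TAP2 (-0.06 to 0.20) the interval of the log2 difference included 0.

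PSMB8, far more abundant in MCF10A than in HCT116, is the member whose level in a mixture depends most on the MCF10A share. After irradiation it was at 0.673 CPM in the mixture against 0.172 CPM in HCT116, without overlap and not called (log2 fold change 2.04 ± 0.71, adjusted p 0.0751). The monoculture levels weighted by the 1.24% share of MCF10A RNA from line-specific genes, the 1 estimate used for these sums, give 0.548 CPM, within the range of the mixed libraries of 0.535 to 0.879 CPM. Without irradiation the weighted sum was 0.526 CPM, above the 3 mixed libraries at 0.250 to 0.433 CPM. For HLA-B the weighted sum was 145.2 CPM without irradiation, above the mixed libraries at 115.4 to 129.7 CPM, and for HLA-C it was 301.2 CPM, above the mixed libraries at 247.3 to 270.1 CPM. The HLA-B sum is close to the 145.7 CPM of HCT116 alone because the MCF10A part makes up 0.151 CPM of it.

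The irradiation response of the members did not detectably differ between the mixture and HCT116 alone. No member was called (edgeR, 0 at an unadjusted p under 0.05, and 0 called by DESeq2), where 0.83% of 18072 genes were called, 0.681% higher and 0.149% lower. The differences were 0.02 for TAP1 (95% interval -0.20 to 0.24), 0.05 for TAP2 (-0.15 to 0.25) and 0.06 for B2M (-0.08 to 0.21). HLA-B differed by 0.07 (-0.11 to 0.25), HLA-C by 0.08 (-0.09 to 0.25) and HLA-F by 0.29 (-0.11 to 0.70), so that the interval was widest for HLA-F among the heavy chains. PSMB9 differed by 0.05 (-0.43 to 0.52). With 1 library left out, the HLA-E difference ran from 0.03 to 0.12. That of PSMB8 ran from 1.49 to 2.62 (edgeR, adjusted p 0.339 to 0.603), on too few counts to place it.

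CALR, the calreticulin chaperone of the loading complex, was higher in the mixture without (0.26 ± 0.059, adjusted p 0.0258) and with irradiation (0.15 ± 0.045, adjusted p 0.0275). It was the only one of 7 loading and trimming genes called in either state.

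The 9 members did not follow 1 common profile. Against their own mean z-score over the 18 libraries, Pearson's r ran from 0.88 for HLA-B, 0.82 for HLA-C and TAP1, 0.79 for HLA-E and 0.75 for HLA-F through 0.11 for PSMB9, -0.12 for B2M and -0.17 for TAP2 to -0.63 for PSMB8. The members are part of that mean, and the values mostly reflect the gap between MCF10A and the other cultures. Outside the members, the genes closest to that mean over the 18 libraries were IFI27 (r = 0.94), GSN (r = 0.94), MYL9 (r = 0.94), TNFSF9 (r = 0.93) and ORAI2 (r = 0.93). Over the 12 HCT116 and mixed libraries alone they were RBCK1 (r = 0.90), CTSB (r = 0.87), SLC27A1 (r = 0.86), LIPG (r = 0.85) and ZNF500 (r = 0.85). The members' own r to their mean there was 0.77 for HLA-B, 0.76 for HLA-C, 0.59 for B2M and 0.58 for TAP1. It was 0.43 for PSMB8, 0.39 for TAP2, 0.32 for HLA-E, 0.06 for HLA-F and -0.28 for PSMB9.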

How the data were processed

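RNA-seq counts per gene symbol were used from all 18 libraries, as deposited by the authors, 1 table a library. Per the labels' protocols, poly(A) RNA was extracted with TriZol and made into paired-end libraries with a stranded mRNA kit. Per the submitters' processing notes, fastp, STAR, featureCounts and GRCh38 were used. Versions, annotation, strand setting and the treatment of multiply mapping reads are not given in the sources used here. Counts were neither normalized nor filtered before deposit as far as their values show, but 68.3% of counts from 1 to 10 were even, so halved counts were run as an alternative.

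CPM was computed from the library total. Tests used edgeR 4.0.16 (R 4.3.3) with TMM factors, filterByExpr and the quasi-likelihood test on the groups compared, adjusted by Benjamini-Hochberg over all genes tested and called under 0.05. The code was tested on simulated data. Intervals are 95% intervals from that fit. All p-values measure the spread between 3 replicates a group. Replicates differed by more than sampling noise (chi-square per gene 4.77 to 14.0 over 18 pairs). The same replicate numbers occur in all groups, but same-numbered libraries mostly did not deviate together (r -0.064 to 0.111 over 15 pairs of groups). The highest values were those of mixed and HCT116 cultures, 0.111 without and 0.094 with irradiation. The labels name no shared batch, so no pairing was used. Alternatives were DESeq2 1.42.0, upper-quartile and library-size scaling, no filter, all 18 libraries in 1 fit, a replicate block, halved counts, summed heavy chain rows, mitochondrial and the 10 most abundant genes left out and each library left out in turn.

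The MCF10A share of RNA in the mixture is the median ratio of mixed to monoculture CPM over line-specific genes (mean of 20 CPM or more in that line, every library of the other line below 1 CPM), with the ratios of both lines scaled to sum to 100%. Per-length levels use GENCODE 29 principal transcripts, a choice made after seeing the data. Promoter windows are RefSeq's, 250 bases upstream of each start.

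The members and all lists were chosen with earlier results of these data known. Named in the text are all 9 members, NLRC5, IRF1, PSMB10, PSME1, PSME2, TAPBP, ERAP1 and ERAP2, genes of a list that were called with an absolute log2 fold change of 1 or more and 10 CPM or more in the higher group, else the called gene with the largest change of its list, and the 5 genes outside the members most correlated with their mean z-score. Other names were chosen after their values were seen. Some genes that the plan listed, among them the gene targeted in the p53-null line, are not reported here.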

Additional observations from a re-analysis of the deposited data

Results flagged for a closer look

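For 5 of the 9 genes the response to irradiation differed between HCT116 and MCF10A in the test of the line-by-irradiation interaction (edgeR, 3 libraries in each of 4 groups), where 37.3% of 18179 genes were called. Each value is the log2 fold change in HCT116 minus that in MCF10A. The difference was -1.001 for HLA-B (95% interval -1.18 to -0.82), -1.53 for HLA-F (-2.04 to -1.03), -0.50 for HLA-E (-0.65 to -0.36) and -0.42 for HLA-C (-0.58 to -0.26). For TAP2 it was 0.42 (0.23 to 0.61). HLA-E, HLA-F and TAP2 were each called in both lines with opposite signs, and all 3 irradiated libraries of each line lay on the same side of their controls. The TAP2 call in MCF10A was lost with DESeq2 (adjusted p 0.0524), upper-quartile scaling (-0.06, adjusted p 0.352), library-size scaling (adjusted p 0.0652) and all 18 libraries in 1 fit (adjusted p 0.0516), and without non-irradiated replicate 3 or irradiated replicate 1, 2 or 3 (adjusted p 0.0558 to 0.163). The HLA-E call in HCT116 was lost without non-irradiated replicate 3 (adjusted p 0.0560). The HLA-F difference had beside it a difference of -1.81 for the overlapping HLA-F-AS1, and the part of the antisense gene in the HLA-F counts was not tested. The lines also differ in medium, so line and medium cannot be told apart.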

How the results depend on the processing

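Of 1259 recomputed values of single genes and summed rows, 1191 kept their side of the threshold, and those called kept their direction. A value called in neither fit was counted as kept even where its sign changed. The TAP1 difference in response of the lines, for example, went from -0.03 to 0.02 with library-size scaling. With library-size scaling TAP2 turned from -0.20 to 0.032 between the irradiated lines. The summed heavy chain rows stood at 0.48 there, against -0.36 for HLA-F alone, but HLA-F is a small part of that sum, which is another quantity and no test of HLA-F or of any other single row. Between mixed cultures and HCT116 without irradiation, 1 member, HLA-C, was called with DESeq2, with upper-quartile scaling, without a filter, with a replicate block and with all 18 libraries in 1 fit, against 0. The genes called there numbered 335, against 575 with DESeq2, 671 without a filter, 706 with the replicate block, 768 with all 18 libraries, and 145 (without non-irradiated mixed replicate 1) to 313 with 1 library left out, with 178 without non-irradiated HCT116 replicate 2. After irradiation 3 members were called with the replicate block, 1 (PSMB8) with all 18 libraries and 0 to 1 with 1 library left out. The genes called there numbered 1467, against 866 (without irradiated mixed replicate 2), 914 (without irradiated mixed replicate 3) and up to 1312 with 1 library left out. For the response of the mixture against HCT116, 150 genes were called, against 327 with DESeq2, 336 without a filter and 64 to 197 with 1 library left out. With the replicate block TAP1 (0.17, adjusted p 0.0779) and HLA-F (-0.36, adjusted p 0.0590) lost their calls between the lines without and with irradiation. Those calls were also lost without a filter (adjusted p 0.127 and 0.0541), and with all 18 libraries in 1 fit HLA-F (adjusted p 0.117) and TAP2 (adjusted p 0.0795) lost theirs between the irradiated lines. Without a filter PSMB8 gained a call for the difference in response of the lines (-1.29, adjusted p 0.0252). In 12 of 42 cases a library correlated best with its own replicate number, so the block rests on numbers alone. It gained calls in the comparisons of mixed cultures with HCT116, where r of same-numbered libraries was highest (0.111 and 0.094).

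The share of higher genes among those called moved with scaling from 47.4% to 57.5% (upper quartile) in irradiated MCF10A, from 51.8% to 62.4% between the non-irradiated and from 50.9% to 60.2% between the irradiated lines (62.2% and 62.4% with library-size scaling). It moved from 41.3% to 52.5% without mitochondrial and the 10 most abundant genes for the response of HCT116 against MCF10A, and from 82% to 61.5% with DESeq2 for that of the mixture against HCT116. At 0 to 31 counts a library, depth limited PSMB8 in HCT116 and mixed cultures.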

Other observations

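Class II genes, which present peptides from outside the cell and normally need the transactivator CIITA, were low in HCT116 and mostly at or near 0 in MCF10A. HLA-DPA1, HLA-DPB1, HLA-DQA1 and HLA-DQB1 had 0 counts in the 3 non-irradiated MCF10A libraries. HLA-DMA, a peptide-loading chaperone of class II, was at 15.8, 16.1 and 14.2 CPM in non-irradiated HCT116 and at 0.647, 0.704 and 0.820 CPM in non-irradiated MCF10A (edgeR log2 fold change 4.21 ± 0.19, adjusted p 7.5e-13). Of the 9 class II genes tested, 7 were higher in HCT116 without irradiation and 8 after it, where 38.7% and 38.1% of all genes tested were. CD74, the invariant chain, rose in irradiated HCT116 from 1.30, 0.497 and 0.507 to 3.87, 1.76 and 2.02 CPM (log2 fold change 1.71 ± 0.40, adjusted p 0.00099), and 5 of the 9 rose and 1 fell there, where 25.3% of all genes tested rose and 27.2% fell.

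MR1, a class I-like molecule that shows vitamin B metabolites to T cells, rose after irradiation in MCF10A (0.88 ± 0.058, adjusted p 3.8e-13), in HCT116 (1.18 ± 0.087, adjusted p 8.1e-11) and in the mixture (1.17 ± 0.10, adjusted p 2.2e-09). Its mean level was 44.9 CPM in non-irradiated and 83.6 CPM in irradiated MCF10A. In HCT116 MR1 was at 20.0 and 44.9 CPM.

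Receptors of interferon-gamma differed between the lines. IFNGR1 was at 113.6, 120.2 and 125.8 CPM in non-irradiated MCF10A and 51.2, 51.1 and 49.3 CPM in non-irradiated HCT116 (log2 fold change -1.44 ± 0.061, adjusted p 2.7e-13). IFNGR2 was also lower in HCT116 (-1.72 ± 0.10, adjusted p 1.7e-11). IFNLR1, a receptor of type III interferons, was higher (2.71 ± 0.16, adjusted p 3.5e-11) and fell after irradiation of HCT116 (-0.81 ± 0.12, adjusted p 5.8e-06). Among interferon genes, IFNE rose in irradiated MCF10A from 0.515 to 2.56 CPM (2.28 ± 0.36, adjusted p 3.5e-06).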
